A study of Mus musculus with 12 samples.

Results

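Mouse embryonic fibroblasts (MEFs) that had received OS + chem + VA5 + Dnmt1-KD and were collected on day 4, called OS-treated MEFs here, were compared with control MEFs on single-colour Agilent arrays. The comparison rests on 6 of the 12 samples of the series, taken by their sample titles, with 3 biological replicates in each group. The other samples were 3 of MEFs given the same treatment with an OCKS construct and 3 of E15.5 female primordial germ cells (PGCs). All 6 MEF samples came from male E14.5 embryos of a cross of C57BL6/J mice that carried the Vasa::RFP and the Oct4_delta_PE-GFP transgenes, so both groups held both reporters. OS stands for Oct4 and Sox2, delivered by plasmid transfection, which reaches only a part of the cells. The name chem stands for tranylcypromine, which inhibits Kdm1a and the monoamine oxidases, for BIX-01294, which inhibits the histone methyltransferases Ehmt1 and Ehmt2, and for DZNep, which inhibits Ahcy and lowers Ezh2. VA5 stands for valproic acid, a histone deacetylase inhibitor, and an inhibitor of the TGF-beta receptor ALK5, and Dnmt1-KD for siRNA against the maintenance DNA methyltransferase. The sources used here do not give whether the control MEFs were transfected or in which medium they were kept, so the effects of the genes, inhibitors, siRNA, transfection and medium cannot be told apart.

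Methylated DNA and methylated or deacetylated histones help to keep genes of other cell types silent, and the cocktail acts on several of these marks together. Fibroblasts in culture form actin stress fibres that end in focal adhesions, and TGF-beta signalling is known to maintain this contractile state. Genes for actin, its motors and its crosslinkers are classic targets of serum response factor, which binds the CArG box. Fibroblasts can also answer cytokines with acute phase proteins, which are otherwise made mainly in the liver, and can answer interferon with antiviral proteins.

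The 12 fibroblast markers checked, among them Col1a1 and Thy1, were well above background on all 6 arrays. Of these markers 2 rose with OS, Pdgfra (3.35) and Dcn (2.63), and 5 fell, among them Pdgfrb (-2.13) and Col1a1 (-1.83). The summed level of all 12, in units of the 75th percentile of the array, was 717 to 1069 in control MEFs. In OS-treated MEFs it was 454 to 613. The Y-linked genes Ddx3y, Eif2s3y and Uty were well above background on all 6 arrays and Kdm5d on 2 of 3 in each group. Ddx3y changed by -1.23 (SE 0.112). Eif2s3y changed by 0.52 (SE 0.097) and Uty by 0.32 (SE 0.239), both under 2-fold. Xist, the RNA of the inactive X chromosome, was well above background on 1 control array and on all 3 OS arrays, and its value was higher with OS by 3.05 (SE 0.284, adjusted p = 5.60e-06). Leukocyte markers were detected too. All 11 leukocyte markers tested fell with OS, their summed level was 28.2 to 30.1 in control MEFs against 4.92 to 5.87 in OS-treated MEFs, and 8 of them were still well above background on every OS array. In such bulk RNA, fewer cells of a type and less RNA per cell cannot be told apart. Arrays had a signal of 1049.7 to 2708.5 at their 75th percentile over a background of 24.5 to 33.5 (median), and with 3 of them per group the precision is limited by their number. Each group spanned several slides and no slide held arrays of both, so no value within a slide could be had.

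Levels are given on a log2 scale relative to the 75th percentile of the array, so that a difference of 1 is 2-fold. Tests covered every gene that all 3 arrays of either group measured well above background. Of 16260 genes tested, 1771 rose (10.9%) and 2087 fell (12.8%) with OS. A call needed a 2-fold difference or more together with a Benjamini-Hochberg adjusted p below 0.001 in limma. The groups of all 3858 called genes did not overlap, which these thresholds largely bring about with 3 arrays per group. The risen genes had a median change of 2.19 and the fallen genes of -1.58, and 187 rose and 73 fell by at least 32-fold. The median over all genes tested was -0.19. With RNA spike-ins as the scale instead, it was 0.61, 4337 genes rose (26.7%) and 643 fell (3.95%). A random block for the slide gave 1687 rises and 1978 falls. Both scales subtract 1 value per array, so the change of every gene moves up by the same amount. All 1771 risen genes also rose on the spike-in scale and 0 of the fallen genes rose, which this shift largely fixes. Of the 2087 fallen genes 643 still fell. Counts on the spike-in scale are therefore given beside those of the groups of genes below.

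The direct targets of the treatment came first. Dnmt1 stood at -1.08, -0.87 and -1.23 in the control MEFs and at -2.86, -3.11 and -3.35 in the OS-treated MEFs. The groups did not overlap, and Dnmt1 fell by 2.05 (SE 0.168, adjusted p = 2.35e-06), the direction the knockdown aims at. Pou5f1, which encodes Oct4, stood at -7.50, -6.94 and -6.33 in control and at -1.76, -0.83 and -0.83 in OS-treated MEFs. It was well above background on 2 of the 3 control arrays and rose by 5.78 (SE 0.381, adjusted p = 5.04e-07), and whether the probe reads the transcript of the plasmid, of the cell or of both was not tested. Sox2 stood at -5.12, -5.26 and -5.76 in control and at -6.19, -5.25 and -3.99 in OS-treated MEFs. These groups overlapped, and the difference of 0.24 did not pass the test (SE 0.637, adjusted p = 0.756).

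Of the 18 targets, the inhibited proteins included, 4 rose and 1 fell, and on the spike-in scale 10 rose and 1 fell. Relatives of ALK5, counted with the targets, were among those that rose, and whether the inhibitor used blocks them too is not given. Acvr1b stood at -5.58, -5.40 and -5.40 in control and at -3.04, -2.97 and -3.25 in OS-treated MEFs, a rise of 2.38 (SE 0.174, adjusted p = 1.03e-06). Acvr1c, which encodes ALK7, stood at -2.55, -2.96 and -0.94 in OS-treated MEFs. Its brightest probe was not well above background on any control array, which makes the rise at least 50.3-fold (adjusted p = 5.85e-06), although another of its probes was above background on 1 control array. Ezh1, a histone methyltransferase, rose by 1.05 (SE 0.122, adjusted p = 2.94e-05) and lay under 2-fold without control replicate 1 (0.99) or without OS replicate 3 (0.91). The differences of Hdac1, Hdac2, Kdm1a, Ehmt1, Ehmt2, Ezh2, Ahcy and Tgfbr1 itself lay between -0.81 for Ahcy and 0.47 for Ehmt1 and were under 2-fold. On the spike-in scale Ehmt1, Ehmt2 and Tgfbr1 passed, at 1.27, 1.01 and 1.04, although another probe of Ehmt1 changed by -0.29.

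**Figure D1:**
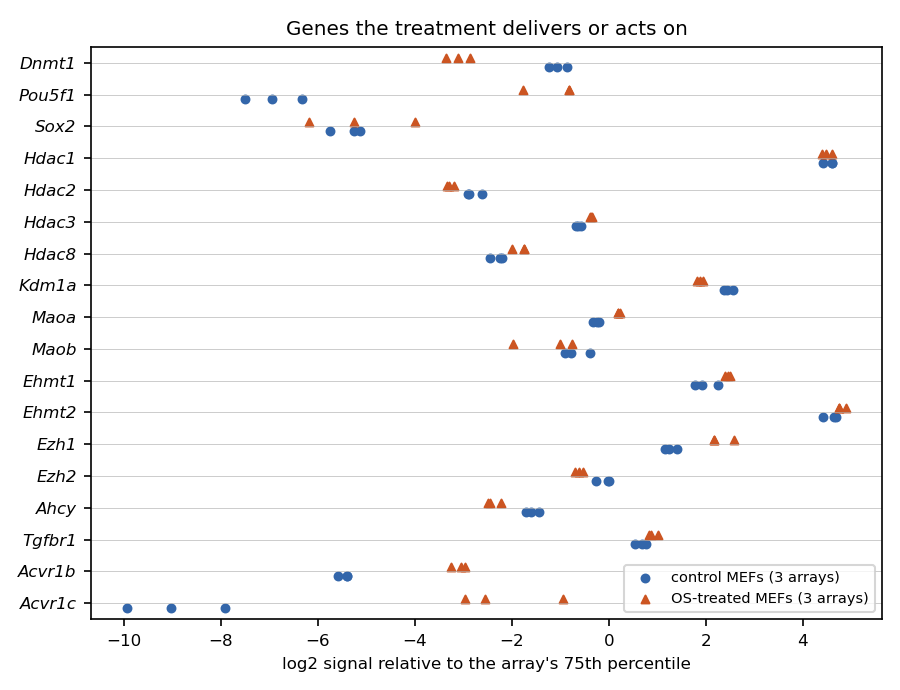
Level of the treatment targets on each array (log2 relative to the 75th percentile of the array), with 1 circle per array of control MEFs and 1 triangle per array of OS-treated MEFs. Dnmt1 lies lower on all 3 OS arrays, from -3.35 to -2.86 against -1.23 to -0.87, Pou5f1 lies higher on all 3, and the points of Sox2 overlap.

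The largest rises were ranked among genes detected on every array, with 70 genes set aside from the ranking, and they included secreted proteins, enzymes and membrane proteins. Ccl11, which encodes the eosinophil attractant eotaxin, stood at -5.45, -5.51 and -4.75 in control and at 4.41, 4.10 and 2.79 in OS-treated MEFs. It rose 512-fold (SE 0.501 on the log2 scale, adjusted p = 1.58e-07). Acod1, the macrophage enzyme that makes itaconate, stood at -6.46, -7.03 and -6.82 against 2.33, 3.01 and 1.10 and rose by 8.92 (SE 0.378). For both genes every OS array lay far above every control array, with OS replicate 3 the lowest of its group. Cldn11, a tight junction protein of myelin and Sertoli cells, rose by 8.20 (SE 0.196), and the protease inhibitor Slpi by 8.19 (SE 0.252). Slpi reached 7.18, 7.14 and 6.31 in OS-treated MEFs from -1.68, -1.37 and -0.89. Complement factor B (Cfb) rose by 7.39, the copper-binding ferroxidase ceruloplasmin (Cp) by 7.22, the aggrecan-cleaving family member Adamts15 by 7.22, and the angiotensin receptor Agtr2 by 6.99. The antiviral enzyme Oas2 rose by 6.99, the acute phase protein Saa1 by 6.93, the steroid sulfate transporter Slc10a6 by 6.93 and the extracellular chaperone clusterin (Clu) by 6.90. Ifi209, an interferon-induced gene, rose by 7.60.

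The largest falls, ranked in the same way, included muscle and matrix genes. Acta1, skeletal muscle actin, stood at 4.11, 3.99 and 3.98 in control and at -2.42, -2.48 and -2.82 in OS-treated MEFs, a fall of -6.60 (SE 0.325, adjusted p = 6.90e-08). Myl9, the light chain of smooth muscle myosin, stood at 7.04, 6.66 and 6.74 against 1.22, 1.07 and 0.87. Both were bright in the control MEFs, and their groups were far apart. The prolactin family gene Prl3a1 changed by -6.66, the chemokine Cxcl14 by -6.37, the gap junction protein Gjb2 by -6.32 and the Wnt-induced matrix protein Ccn4 by -6.21. Further down came the choline transporter Slc5a7 (-6.05), the matrix protein Ccdc80 (-5.90), the tendon gene Tnmd (-5.55) and the semaphorin receptor Plxnc1 (-5.51). C1qa, a complement subunit made by macrophages, changed by -5.80 (SE 0.567). Its fall went with that of the leukocyte markers, whose part in it was not tested.

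**Figure D2:**
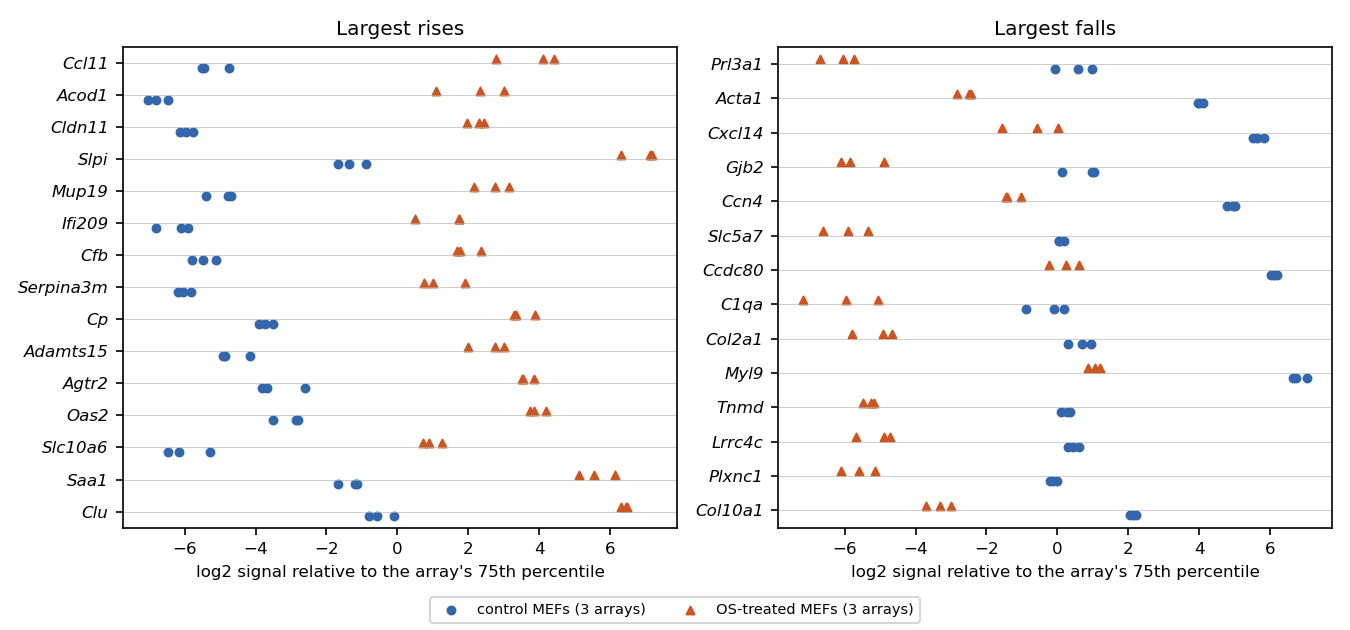
Level of genes among the largest rises and falls of the ranked genes well above background on every array (log2 relative to the 75th percentile of the array), with 1 circle per array of control and 1 triangle per array of OS-treated MEFs. The points of the groups do not overlap for any gene shown, which the ranking required, from Ccl11, up 512-fold, to Prl3a1, at -6.66.

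Of the risen genes 137 were not well above background on any control array, and of the fallen genes 141 were not so on any OS array. For these the fold is a lower bound, the mean of the brighter group over the lowest signal well above background or the probe's own signal where that was higher. Tex19.1, a germline and placental gene that restrains retrotransposons, stood at 0.54, 0.84 and 1.25 in OS-treated MEFs and rose at least 378-fold. The paper reports its induction by this treatment, also by real-time PCR. Nppc, which encodes C-type natriuretic peptide, stood at -0.31, 0.57 and 0.30 and rose at least 269-fold. The liver carboxylesterase Ces1f rose at least 184-fold, the macrophage-secreted protein Retnla at least 141-fold and the acute phase protein Saa2 at least 125-fold. Smaller bounds held for the vasoactive peptide Uts2 (at least 91.2-fold), the fatty acid hydroxylase Fa2h (at least 90.4-fold), the antibacterial lectin Reg3g (at least 88.2-fold) and the amino acid transporter Slc7a10 (at least 86.2-fold). In the other direction, Cx3cr1, the fractalkine receptor of microglia and macrophages, stood at -0.38, -1.32 and -0.19 in control MEFs and fell at least 128-fold, and the myeloid receptor Cd300c2 fell at least 57.1-fold. Both fell with the leukocyte markers, and the part of these in the result was not tested. Edn1, the vasoconstrictor endothelin 1, fell at least 56.8-fold, the desmosomal protein Pkp1 at least 35.3-fold, the axon guidance protein Sema5b at least 33.8-fold and Kcnmb1, the smooth muscle subunit of the BK potassium channel, at least 27.7-fold.

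The actin and adhesion genes had the lowest median change of the lists and families compared, and the Schlafen genes the highest. A group is described by how many of its tested members rose and fell and by its median, beside the 10.9% and 12.8% and the median of -0.19 over all genes tested. Its counts on the spike-in scale stand beside 26.7% risen and 3.95% fallen over all genes, with a median of 0.61.

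**Figure D3:**
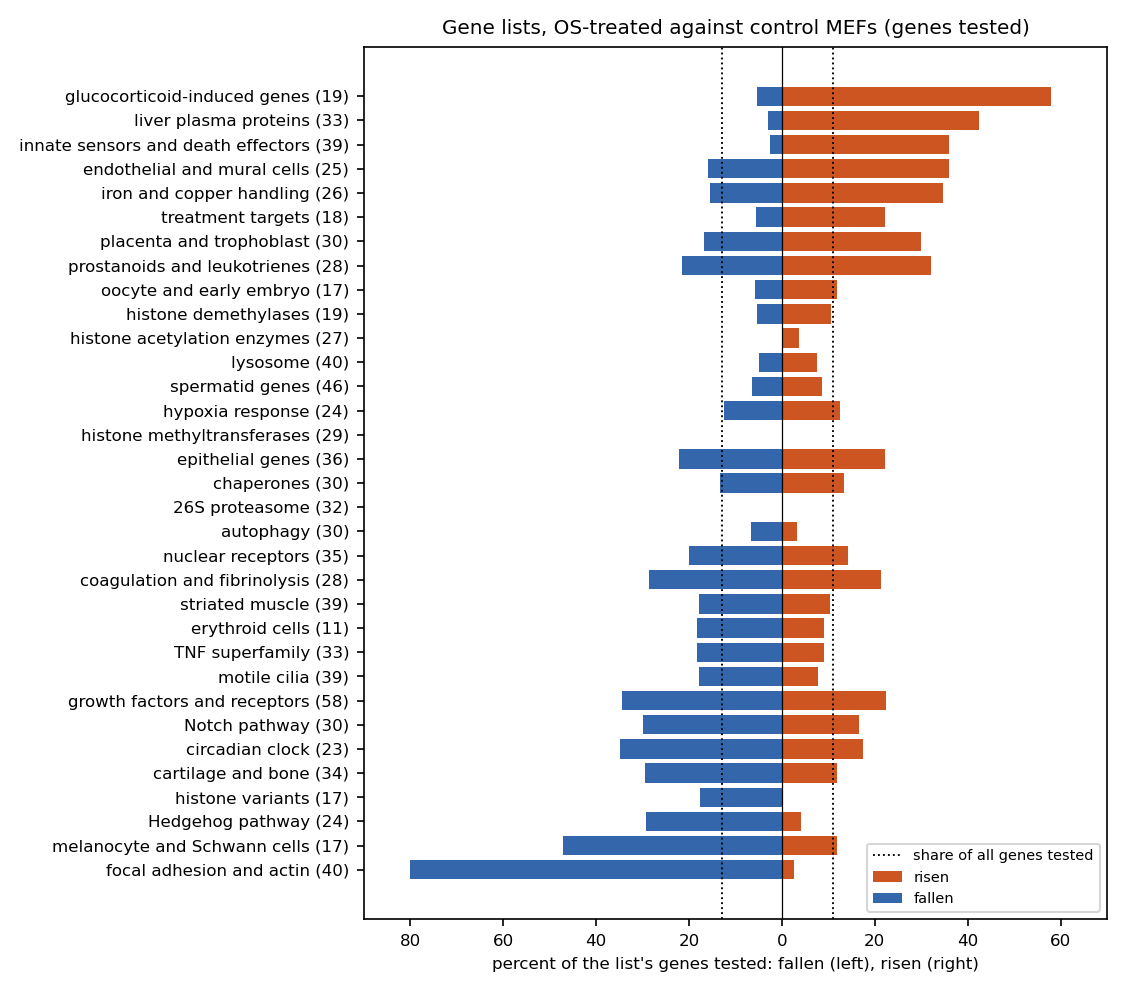
Percentage of the tested members of each gene list that rose (right) and that fell (left) with OS, with the number tested in parentheses and dotted lines at the shares over all genes tested, 10.9% and 12.8%. The focal adhesion and actin genes reach 80.0% on the fallen side, and the glucocorticoid-induced genes 57.9% on the risen side.

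Focal adhesion and actin genes were lower with OS. Of 40 tested, 32 fell and 1 rose, with a median of -1.78, and on the spike-in scale 15 fell and 1 rose with a median of -0.99. The LIM protein Fhl1 stood at -0.66, -0.41 and -0.94 in control and at -5.35, -5.39 and -4.54 in OS-treated MEFs, a fall of -4.42 (SE 0.269). Lmod1, which nucleates actin filaments in smooth muscle, changed by -3.51 (SE 0.197), and the crosslinker Actn1 by -2.97 (SE 0.201). Filamin A (Flna), one of the brightest, went from 7.21, 6.79 and 6.92 to 5.02, 4.96 and 4.75. Every OS array lay below every control array for each of these. Vcl, which encodes vinculin, a linker of adhesions to actin, changed by -1.95 (SE 0.149), and the actin-bundling LIM protein Lima1 by -1.32 (SE 0.186). On the spike-in scale these were -1.15 and -0.52, neither of which passed the test.

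The promoters of these genes are shown because the CArG box lies in some of them. Among 20 fallen members with a single start site in the RefSeq promoter table (GRCm38.p6), 3 held a CArG box on either strand between 250 bases before and 50 bases after the start, against 1.53% of all 22862 such promoters. They were Myl9, Vcl and Lima1, and Acta1 of the muscle genes held another. Over all 1226 fallen genes with such a promoter, 2.37% held the box. The 250 bases before each start are printed 5′ to 3′ on the strand of the gene, with the CArG box in capitals.
Myl9 (chr2:156775214-156775463, plus strand): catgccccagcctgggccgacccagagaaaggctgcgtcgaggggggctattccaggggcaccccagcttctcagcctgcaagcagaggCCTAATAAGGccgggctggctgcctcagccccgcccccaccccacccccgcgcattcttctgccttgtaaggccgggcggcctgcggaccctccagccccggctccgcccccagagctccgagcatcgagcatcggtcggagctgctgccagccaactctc
Vcl (chr14:20929148-20929397, plus strand): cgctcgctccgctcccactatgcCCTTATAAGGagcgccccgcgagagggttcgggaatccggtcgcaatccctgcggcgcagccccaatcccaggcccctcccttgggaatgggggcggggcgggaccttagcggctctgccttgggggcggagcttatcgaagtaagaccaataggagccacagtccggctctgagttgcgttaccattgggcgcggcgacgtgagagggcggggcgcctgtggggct
Lima1 (chr15:99820150-99820399, minus strand): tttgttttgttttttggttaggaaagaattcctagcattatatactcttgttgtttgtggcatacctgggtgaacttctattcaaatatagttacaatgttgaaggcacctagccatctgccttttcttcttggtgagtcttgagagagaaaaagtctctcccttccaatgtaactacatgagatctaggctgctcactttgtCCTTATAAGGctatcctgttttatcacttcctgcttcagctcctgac
Acta1 (chr8:123894776-123895025, minus strand): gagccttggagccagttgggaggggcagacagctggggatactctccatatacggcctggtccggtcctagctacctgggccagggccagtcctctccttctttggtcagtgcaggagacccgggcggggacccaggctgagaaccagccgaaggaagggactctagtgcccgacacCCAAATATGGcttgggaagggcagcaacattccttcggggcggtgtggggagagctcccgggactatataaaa
Counted from the start site, the box began at position -161 in Myl9, -227 in Vcl, -47 in Lima1 and -73 in Acta1. A match is a description of the sequence, and no binding was measured. For the 17 other fallen members, no match says only that the box is not in this window.

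Integrins, the receptors that focal adhesions form on, fell in 10 of 23 cases and rose in 4, with a median change below that of all genes. On the spike-in scale 4 fell and 7 rose. Itgb1, the common beta subunit, changed by -1.80 (SE 0.093). Itgb7, a leukocyte beta subunit, went the other way, from -4.09, -3.84 and -4.04 to 2.03, 2.58 and 1.42, a 64.0-fold rise (SE 0.260 on the log2 scale). Of 39 striated muscle genes 7 fell and 4 rose (2 and 6 on the spike-in scale), with cardiac troponin T (Tnnt2) at -4.20 (SE 0.181). Of 25 tubulins 9 fell and 2 rose, and on the spike-in scale 1 fell and 5 rose. Tubb2b, a tubulin of neurons, changed by -3.36, whereas the testis alpha-tubulin Tuba3a rose by 5.67 and its near-identical copy Tuba3b by 5.21, which their probes may not tell apart.

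Cartilage and bone genes fell in 10 of 34 cases and rose in 4, and on the spike-in scale 6 fell and 10 rose. Col2a1, the main collagen of cartilage, stood at 0.69, 0.95 and 0.30 in control and at -5.79, -4.93 and -4.65 in OS-treated MEFs, a fall of -5.77 (SE 0.390). Col10a1, the collagen of hypertrophic chondrocytes, changed by -5.47 (SE 0.300) and the skeletal transcription factor Dlx5 by -2.29 (SE 0.203). Spp1, which encodes osteopontin, rose by 3.52 (SE 0.270). Matrix and transcription factor genes of the skeleton were thus among the falls, and this secreted bone protein among the rises.

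Glucocorticoid-induced genes rose in 11 of 19 cases and fell in 1, with a median of 1.84, and on the spike-in scale 13 rose and 0 fell. Zbtb16, the zinc finger protein PLZF, stood at -5.91, -5.06 and -4.45 in control and at 1.39, 0.97 and 1.43 in OS-treated MEFs, a rise of 6.40 (SE 0.342). Angptl4, an inhibitor of lipoprotein lipase, rose by 5.53 (SE 0.156), Fkbp5, the cochaperone that restrains the glucocorticoid receptor, by 4.11 (SE 0.127) and Pdk4, which holds back pyruvate oxidation, by 3.90 (SE 0.114). The groups of these 4 genes did not overlap, as for every called gene. Dusp1, a MAP kinase phosphatase, was the member that fell, by 1.30 (SE 0.188), and it did not pass on the spike-in scale (-0.50). Hsd11b1, which regenerates active glucocorticoid in the cell, rose by 5.31 (SE 0.239).

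Plasma proteins of the liver and the acute phase rose in 14 of 33 cases and fell in 1, with a median of 1.31, and on the spike-in scale 17 rose and 0 fell. Haptoglobin (Hp), which binds free haemoglobin, stood at 0.13, -0.21 and 0.23 in control and at 7.04, 6.35 and 6.73 in OS-treated MEFs, a rise of 6.66 (SE 0.200). Fetuin B (Fetub), a protease inhibitor, rose by 5.83 (SE 0.168), and Serpina3n, another, by 5.46 (SE 0.395). Alb, which encodes albumin, reached -1.97, -2.47 and -4.20 and rose at least 32.2-fold, while Apoe did not pass the test at -0.08 (adjusted p = 0.867). Serpins as a family rose in 12 of 40 cases and fell in 7, or rose in 9 and fell in 4 without control replicate 2, and on the spike-in scale 17 rose and 1 fell. Serpinb2, an inhibitor of plasminogen activators, rose by 6.32 (SE 0.614).

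Iron and copper genes rose in 9 of 26 cases and fell in 4, and on the spike-in scale 13 rose and 1 fell. Transferrin (Trf), the plasma carrier of iron, stood at -1.56, -1.95 and -1.32 in control and at 2.66, 2.57 and 1.84 in OS-treated MEFs, a rise of 3.96 (SE 0.347). The ferrireductase Steap3 rose by 2.14 (SE 0.121) by its brightest probe, while its other probe changed by 0.72. Tfrc, the receptor that takes transferrin up, changed by -1.52 (SE 0.119) and did not pass on the spike-in scale (-0.73).

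Innate sensors and effectors of inflammatory cell death rose in 14 of 39 cases and fell in 1, with a median of 0.54. On the spike-in scale 19 rose and 0 fell. Lbp, which carries lipopolysaccharide to its receptor, stood at -6.68, -6.60 and -5.73 in control and at 0.07, -0.35 and 0.04 in OS-treated MEFs, a rise of 6.26 (SE 0.333). Nod2, a sensor of bacterial cell walls that was well above background on 2 of 3 control arrays, rose by 5.74 (SE 0.346), Casp1, the protease of the inflammasome, by 5.41 (SE 0.417), and Zbp1, a sensor of Z-form nucleic acid, by 5.24 (SE 0.274). Nlrc5, the activator of MHC class I genes, rose by 3.85 (SE 0.266) by its brightest probe and by 1.08 by another. Each was higher on all 3 OS arrays while the leukocyte markers were lower, and which cells these rises came from was not tested. Interleukin receptors rose in 9 of 34 cases and fell in 3, and on the spike-in scale 14 rose and 2 fell. The decoy receptor Il13ra2 rose by 5.35 (SE 0.307), the IL-1 decoy Il1r2 by 4.33 (SE 0.542) and the signalling receptor Il1r1 by 3.05 (SE 0.305).

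Schlafen genes, regulators of cell growth and viral replication that interferon induces, rose in 5 of 6 cases and fell in 0, with a median of 4.34, the same counts as on the spike-in scale. Slfn2 stood at -3.04, -2.76 and -2.32 in control and at 2.21, 2.19 and 1.35 in OS-treated MEFs, a rise of 4.63 (SE 0.280). Slfn8 rose by 4.43 (SE 0.163), Slfn4 at least 18.2-fold and Slfn5 at least 9.80-fold. These genes lie beside each other and are alike in sequence, so a probe may read more than 1 of them. Among the TRIM ubiquitin ligases 9 of 52 rose and 4 fell, and on the spike-in scale 19 rose and 1 fell. Trim30a rose by 4.80 (SE 0.327), its close copy Trim30d by 3.81 (SE 0.373), and the antibody-binding ligase Trim21 by 2.93 (SE 0.275).

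The interferon response element was searched as GAAANNGAAA on both strands in the same 300 bases. It was found in 3.58% of all promoters with a single start. The share was 2.86% for tested genes that were not called, 6.07% for risen genes and 3.18% for fallen genes. For genes that rose at least 8-fold it was 9.84%, and for those that fell at least 8-fold 6.06%. Among genes not above background in either group it was 4.25%. Of 6 risen TRIM genes with a promoter 3 held it (Trim21, Trim30d and Trim34a), and of 4 risen Schlafen genes 1 did (Slfn5). The 250 bases before the start of one of each family (RefSeq, GRCm38.p6, 5′ to 3′ on the strand of the gene) are shown with the element in capitals, since both genes rose. In Trim30d it lies on the opposite strand and begins at position -41 from the start, and in Slfn5 it lies on the strand of the gene at position -155.
Trim30d (chr7:104507850-104508099, minus strand): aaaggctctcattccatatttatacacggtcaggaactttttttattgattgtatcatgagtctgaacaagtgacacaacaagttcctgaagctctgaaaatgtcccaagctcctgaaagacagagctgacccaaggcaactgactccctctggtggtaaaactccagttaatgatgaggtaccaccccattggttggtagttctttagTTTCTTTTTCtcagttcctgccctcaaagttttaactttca
Slfn5 (chr11:82951852-82952101, plus strand): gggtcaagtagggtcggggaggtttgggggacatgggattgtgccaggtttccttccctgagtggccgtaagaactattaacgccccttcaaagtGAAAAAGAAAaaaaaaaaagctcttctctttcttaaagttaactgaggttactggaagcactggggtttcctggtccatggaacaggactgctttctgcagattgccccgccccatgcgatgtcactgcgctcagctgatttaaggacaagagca
The match is a description and does not show that a factor binds there.

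Notch is a receptor that signals between touching cells. Of 30 members of its pathway tested 9 fell and 5 rose, and on the spike-in scale 7 fell and 10 rose. Hey1, a repressor that Notch induces, stood at 0.13, 0.41 and 0.20 in control and at -5.08, -4.79 and -4.40 in OS-treated MEFs, a 32.1-fold fall (SE 0.219 on the log2 scale). Hes1, the best known target, went from -0.47, -0.89 and -0.79 to -5.71, -5.40 and -5.75, a fall of -4.90 (SE 0.203). Heyl, well above background on 2 of 3 OS arrays, changed by -5.66 (SE 0.581), Hey2 fell at least 10.3-fold, and Nrarp, a feedback inhibitor of the pathway, at least 10.4-fold. The ligand Jag1 changed by -2.68 (SE 0.212). In contrast, the ligand Dll1 rose by 2.33 (SE 0.235) and Rbpj, the DNA-binding partner of Notch, by 2.02 (SE 0.126). These targets and ligands kept their direction on the spike-in scale, which moves every change up alike.

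Hedgehog genes fell in 7 of 24 cases and rose in 1, and on the spike-in scale 2 fell and 5 rose. The 2 were Gli1 and Hhip, a transcription factor and a decoy receptor that the pathway itself induces. Hhip stood at -1.02, -1.28 and -1.30 in control and at -4.01, -3.90 and -3.88 in OS-treated MEFs, a fall of -2.73 (SE 0.103), and Gli1 changed by -2.03 (SE 0.173). Gas1, a coreceptor for the ligand, rose by 2.29 (SE 0.168).

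Growth factors and their receptors moved both ways, with 20 of 58 fallen and 13 risen, and 13 fallen and 19 risen on the spike-in scale. Mst1, the hepatocyte growth factor-like protein, stood at -5.40, -5.12 and -5.15 in control and at 0.43, 0.69 and 0.60 in OS-treated MEFs, a rise of 5.80 (SE 0.120). The GDNF family receptor Gfra2 rose by 4.48 (SE 0.262), the Kit ligand Kitl by 2.77 (SE 0.239) and Fgf7 by 2.68 (SE 0.204). Fgf9 went from -1.19, -1.54 and -0.92 to -6.47, -5.98 and -7.12, a fall of -5.31 (SE 0.260), and Hbegf, a ligand of the EGF receptor, changed by -4.24 (SE 0.338). Prostanoid and leukotriene genes rose in 9 of 28 cases and fell in 6, and on the spike-in scale 11 rose and 3 fell. The rises included the receptors Ptger2 (4.49), Ptgfr (4.24) and Ptgir (3.84), for prostaglandins E2 and F2-alpha and for prostacyclin, and the cyclooxygenase Ptgs1 (2.42). The falls included the thromboxane receptor Tbxa2r (-4.55), thromboxane synthase (Tbxas1, at least 25.6-fold) and prostaglandin D synthase (Hpgds, at least 6.30-fold). The last 2 are also expressed by macrophages, and the part of the falling leukocyte markers was not tested.

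Circadian clock genes fell in 8 of 23 cases and rose in 4, and on the spike-in scale 2 fell and 8 rose. The transcription factor Bhlhe40, a repressor, changed by -2.61 (SE 0.128), and Nr1d1, which encodes REV-ERB-alpha, by -1.52 (SE 0.119), which did not pass on the spike-in scale (-0.73). Per2, a repressor of the core loop, rose by 1.78 (SE 0.102). The time of day of the harvests is not given, so clock phase and treatment cannot be told apart. Among nuclear receptors 7 of 35 fell and 5 rose, and on the spike-in scale 4 fell and 12 rose. Nr2f1, an orphan receptor of development, rose by 3.26 (SE 0.231) and the oxysterol receptor Nr1h3 by 2.98 (SE 0.216), while the progesterone receptor Pgr fell at least 3.50-fold.

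Genes of other cell types moved in both directions. Among endothelial and mural genes 9 of 25 rose and 4 fell, and on the spike-in scale 11 rose and 3 fell. Cd34, a surface sialomucin of progenitors, vessels and stromal cells, stood at -0.01, -0.15 and -0.10 in control and at 5.61, 5.58 and 5.07 in OS-treated MEFs, a rise of 5.51 (SE 0.303). Mmrn2 rose by 4.49 and Plvap by 3.75, whereas Pecam1, a defining endothelial marker, did not pass the test at 0.23 (adjusted p = 0.158) and the pericyte marker Cspg4 changed by -3.59. The summed level of this list was 27.5 to 30.5 in control and 79.8 to 88.5 in OS-treated MEFs, and without Cd34 it was 26.6 to 29.5 and 37.9 to 46.3. Epithelial genes rose in 8 of 36 cases and fell in 8, on the spike-in scale 12 rose and 3 fell, and 5 rose without control replicate 1 or without OS replicate 1. The tight junction gene Cldn3 rose by 5.96 (SE 0.499), and the keratin Krt23, well above background on 2 of 3 control arrays, by 8.74 (SE 0.506). Grhl2, an activator of epithelial genes, rose at least 9.71-fold by its brightest probe, although another probe of it was above background on 2 control arrays. The falls included Cdh3 (-3.78), the keratin Krt14 (-2.59) and Dsp (-2.31). Melanocyte and Schwann cell genes fell in 8 of 17 cases and rose in 2, with a median of -0.95, and on the spike-in scale 1 fell and 4 rose. Without control replicate 1 or 2, 5 fell and 1 rose. Mitf, the regulator of melanocytes, rose by 2.17 (SE 0.111), while the crest factor Sox10 changed by -1.52, which did not pass on the spike-in scale (-0.73).

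Placental and germline groups were mixed too, and some of their genes lie on the X chromosome. Of 30 placental genes 9 rose and 5 fell, and on the spike-in scale 13 rose and 1 fell, with Plac8 at 5.36 (SE 0.251), Plac1 at 4.47 (SE 0.300) and the X-linked homeobox gene Rhox6, well above background on 2 of 3 control arrays, at 4.02 (SE 0.234). The placental hormone gene Prl8a2 rose at least 18.1-fold, opposite to Prl3a1 of the same family. Of 46 spermatid genes 4 rose and 3 fell, on the spike-in scale 9 rose and 0 fell, and 1 fell without control replicate 2 or without OS replicate 1. Spaca1, a protein of the acrosome, stood at -4.36, -4.43 and -4.01 in control and at -1.35, -1.17 and -1.44 in OS-treated MEFs, a rise of 2.95 (SE 0.118), and Meig1 rose by 2.53 (SE 0.228). Of 17 oocyte genes 2 rose and 1 fell (7 and 0 on the spike-in scale), and Tle6 of the oocyte's subcortical complex rose by 1.31 (SE 0.173). Motile cilia genes rose in 3 of 39 cases and fell in 7, and on the spike-in scale 7 rose and 5 fell. Spag16 rose at least 16.9-fold and Cfap70 by 4.21 (SE 0.447), whereas Rsph1, a radial spoke protein, changed by -3.26 (SE 0.140).

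Conjugating enzymes rose in 16 of 39 cases and fell in 2, with a median of 1.04, and on the spike-in scale 27 rose and 0 fell. The glucuronosyltransferase Ugt1a6a stood at 0.65, 0.55 and 1.18 in control and at 5.20, 5.17 and 5.29 in OS-treated MEFs, a rise of 4.42 (SE 0.154), and Ugt1a10 of the same locus, whose transcripts share exons with it, rose by 5.17 (SE 0.226). Mgst2 rose by 4.13 (SE 0.304) and Gsta2 by 3.58 (SE 0.375). Aldehyde dehydrogenases and aldo-keto reductases rose in 11 of 30 cases and fell in 4, and on the spike-in scale 18 rose and 2 fell. Aldh1a1, which makes retinoic acid, rose by 3.74 (SE 0.328) and its paralog Aldh1a7 by 5.95 (SE 0.351). Akr1c19 fell at least 20.4-fold.

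Several families of membrane proteins had more falls than rises. On the spike-in scale all but the protocadherins had more rises than falls, as had all genes tested (26.7% risen and 3.95% fallen). Of 67 potassium channel genes 17 fell and 6 rose, and on the spike-in scale 8 fell and 14 rose. Without OCKS replicate 2, which enters the shared spread, 21 fell and 10 rose. Kcnv2, a silent subunit, rose at least 37.9-fold, opposite to Kcnmb1. Of 37 protocadherins 20 fell and 2 rose, with a median of -1.54, and on the spike-in scale 11 fell and 3 rose. Pcdh17, which lies outside the clusters, went from -2.25, -2.28 and -1.64 to 2.20, 2.18 and 1.57, a rise of 4.04 (SE 0.231). Semaphorins and plexins fell in 10 of 29 cases and rose in 4, and on the spike-in scale 5 fell and 10 rose. Solute carriers fell in 50 of 287 cases and rose in 42, and on the spike-in scale 12 fell and 92 rose.

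Groups of basic cell functions were counted too. Without spike-in scaling, genes of the proteasome, histone methylation, autophagy and the lysosome had smaller shares of rises and falls than all genes tested. Chaperones and hypoxia genes did not have a smaller share of rises. The order depended on the scale, since with spike-in scaling 26.7% of all genes tested rose. There lysosomal genes (17 of 40) and autophagy genes (9 of 30) had larger shares of rises than all genes tested. Chaperones (5 of 30) had a smaller share there. Of 32 subunits of the 26S proteasome 0 rose and 0 fell in limma, 21 had an unadjusted p under 0.05, and on the spike-in scale 1 rose. Of 29 histone methyltransferases, without Ehmt1, Ehmt2, Ezh1 and Ezh2, which were counted with the treatment targets, 0 were called in limma, with 18 at an unadjusted p under 0.05 and 7 risen on the spike-in scale. Among histone demethylases 2 of 19 rose, Kdm7a (1.84, SE 0.118) and Kdm4d (1.64, SE 0.159), and 1 fell (3 and 0 on the spike-in scale). Autophagy genes rose in 1 and fell in 2 of 30 cases (9 and 0 on the spike-in scale), and lysosomal genes rose in 3 and fell in 2 of 40, with 17 risen and 1 fallen on the spike-in scale. The lysosomal rises included Naglu (1.68) and the cholesterol carrier Npc2 (1.32). Cathepsin S (Ctss), a protease of antigen-presenting cells, changed by -5.25 (SE 0.517), together with the leukocyte markers, whose part in it was not tested. Among chaperones 4 of 30 rose and 4 fell (5 and 2 on the spike-in scale), with the small heat shock proteins Hspb7 at 3.09 and Hspb6 at -2.55. Hypoxia genes rose in 3 of 24 cases and fell in 3, and on the spike-in scale 7 rose and 0 fell. Hif3a, whose product restrains the response, rose by 6.95 (SE 0.348) by its brightest probe, which was well above background on 2 of 3 control arrays, while the 3 probes detected ranged from 0.38 to 6.95.

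Among ADAM and ADAMTS proteases 9 of 44 rose and 6 fell (15 and 1 on the spike-in scale), with the synaptic receptor Adam22 at 2.70 (SE 0.124). Among coagulation genes 8 of 28 fell and 6 rose, on the spike-in scale 5 fell and 9 rose, and 5 fell without control replicate 1, without control replicate 2 or without OS replicate 1. Tfpi2, an inhibitor of the tissue factor pathway, changed by -3.09 (SE 0.185). In the TNF superfamily 6 of 33 fell and 3 rose, or 5 rose without OS replicate 3, and on the spike-in scale 5 fell and 10 rose. Tnfrsf11b, the decoy receptor osteoprotegerin, changed by -3.44 (SE 0.296), and the B cell survival factor Tnfsf13b rose 8.56-fold (SE 0.242 on the log2 scale). Of 10 X-linked lymphocyte regulated genes 6 rose and 0 fell, with a median of 2.01, and 7 rose on the spike-in scale. The X-linked germline antigens Mageb16 and Mageb4 rose at least 13.7-fold and at least 2.11-fold, among 9 MAGE genes of which 2 rose and 1 fell (2 and 0 on the spike-in scale). Of 342 zinc finger genes of the Zfp series 22 rose and 20 fell. On the spike-in scale, where 26.7% of all genes rose, 106 rose and 2 fell. Zfp750, an epidermal factor, rose by 3.33 (SE 0.252). The tetraspanin Tspan11 rose by 4.18 (SE 0.251) and Tspan2 changed by -4.03 (SE 0.258), and the calcium-binding S100a8 rose by 6.02 (SE 0.871) from -5.55, -5.25 and -5.29 to 1.21, 1.36 and -0.59. Of 17 histone variant genes 3 fell and 0 rose in limma (1 and 2 on the spike-in scale), and the linker histone H1f10 changed by -1.90 (SE 0.179).

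Some called genes were neighbours. Among the tested genes in chromosome order, 24 runs of at least 4 neighbours all rose, with 119 genes or 6.72% of the risen genes, and 9 such runs all fell, with 44 genes or 2.11% of the fallen genes. The longest held 10 genes on the X chromosome, from the Ssxb genes to the ferritin-like genes Fthl17d, Fthl17e and Fthl17f, and Fthl17d and Fthl17e rose at least 9.22-fold and 9.44-fold. Next came 8 major urinary protein (Mup) genes on chromosome 4, of which Mup20 rose at least 401-fold by its brightest probe, although another probe of it was above background on 2 control arrays, and Mup3 rose at least 141-fold. A run of 7 X-linked genes held Slx, of the spermatid-expressed Xlr family, which stood at -5.47, -5.67 and -5.69 in control and at -2.34, -2.22 and -2.26 in OS-treated MEFs, a rise of 3.34 (SE 0.104). The members of these families are near-identical, so neighbours that rose together may in part be 1 transcript read by several probes. On the X chromosome 15.8% of 606 tested genes rose.

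Among the runs that fell, 8 neighbouring protocadherin genes on chromosome 18, from Pcdhb14 to Pcdhb22, changed by -2.93 to -1.54, and 20.4% of the tested genes of that chromosome fell. Pcdhb14 stood at -3.79, -3.73 and -3.61 in control and at -5.79, -6.15 and -6.29 in OS-treated MEFs. A run of 6 genes on chromosome 13 held the small leucine-rich matrix proteins Aspn, Omd and Ogn. Aspn, or asporin, stood at 1.72, 1.66 and 1.97 in control and at -7.31, -9.41 and -6.71 in OS-treated MEFs, where it was well above background on 2 of 3 arrays, a change of -9.59 (SE 0.809). Omd, also well above background on 2 of 3 OS arrays, changed by -5.72 (SE 0.572) and Ogn by -3.09 (SE 0.531). Ogn did not pass with the slide as a random block or with the replicate number as a block, Pcdhb15 not with the former and Pcdhb22 not with the latter. The shorter run of Pcdh19, Tnmd, Tspan6, Srpx2 and Sytl4 lies on the X chromosome, with Srpx2 at -2.37 (SE 0.198). Gm5935 of the run with Slx and Pcdhb15, Pcdhb22, Cenpp, Ecm2, Ogn and Sytl4 did not pass without 1 or another of the arrays, which breaks these runs.

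**Figure D4:**
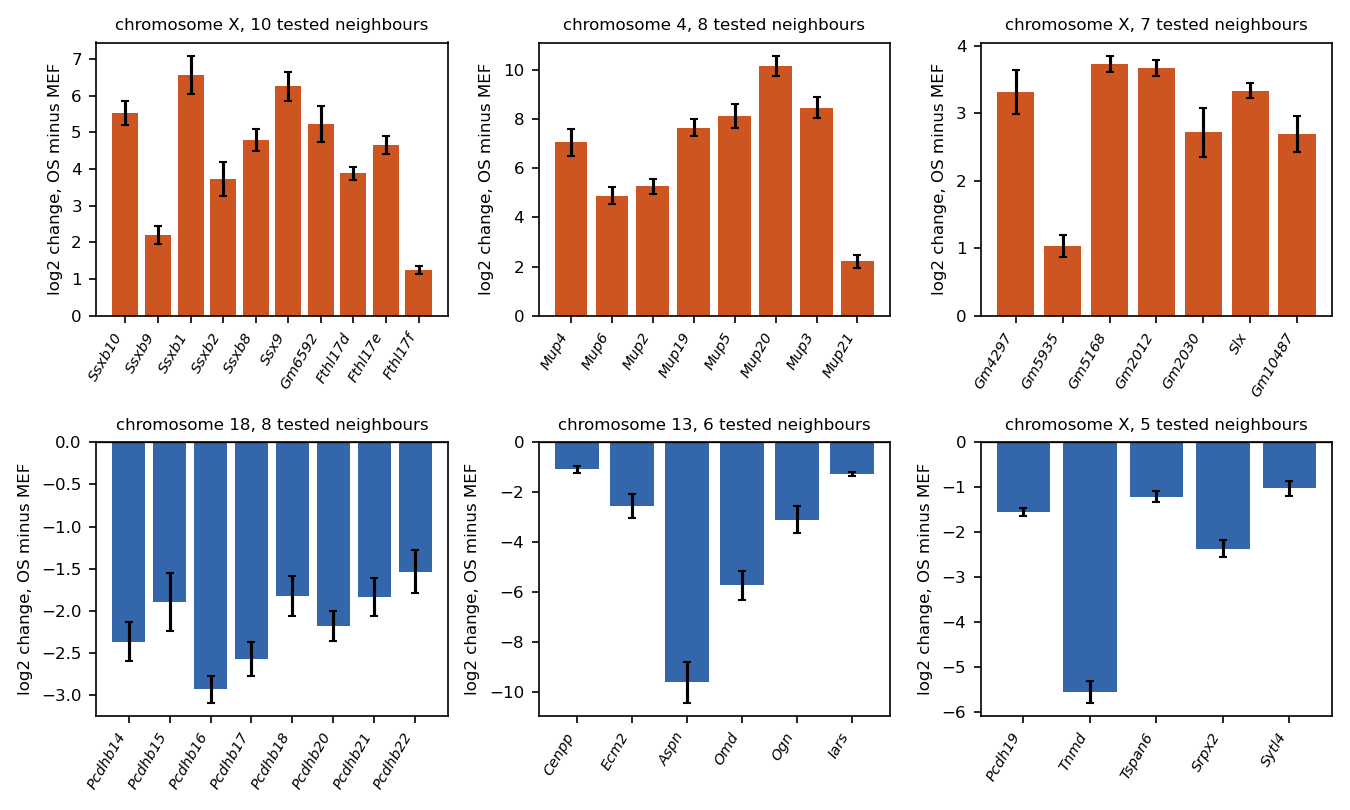
Change of each gene (log2, OS-treated minus control MEFs) along the longest runs of neighbouring tested genes that all rose or all fell, in chromosome order, with the standard error as error bars, where genes below background in one group are drawn at their fitted value. Changes reach 10.17 for Mup20 in the risen runs and -9.59 for Aspn in the fallen runs.

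The promoters of genes that changed much were more often poor in CpG than those of genes not called, and less often than those of genes not above background in either group. Of 10451 tested genes with a single start site in the RefSeq table, 22.5% had an observed over expected CpG ratio under 0.35 in the 300 bases around the start. The share was 20.3% among genes not called, 33.8% among risen genes and 26.9% among fallen genes. It was 55.5% among the 366 that rose at least 8-fold, 38.4% among the 198 that fell at least 8-fold and 53.7% among the 95 that were off in control MEFs and rose. Among 1482 genes not above background in either group it was 77.5%. Over all 22862 promoters the share was 48.1%, so the tested genes differ from the rest as well. The TATA box, searched as TATAAA on both strands, was present in 9.69% of promoters of genes not called, 22.7% of those that rose at least 8-fold, 18.7% of those that fell at least 8-fold and 33.7% of those that were off in control MEFs, against 26.9% of genes not above background in either group and 14.8% of all promoters. The genes off in control MEFs were tested only through their signal on the OS arrays. What this selection adds to their shares was not tested. These shares are descriptions, and the arrays did not measure DNA methylation. By bisulphite sequencing the paper reports lower methylation after the treatment at the promoters of Dazl, Tex19.1 and, to a smaller extent, Sycp1.

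**Figure D5:**
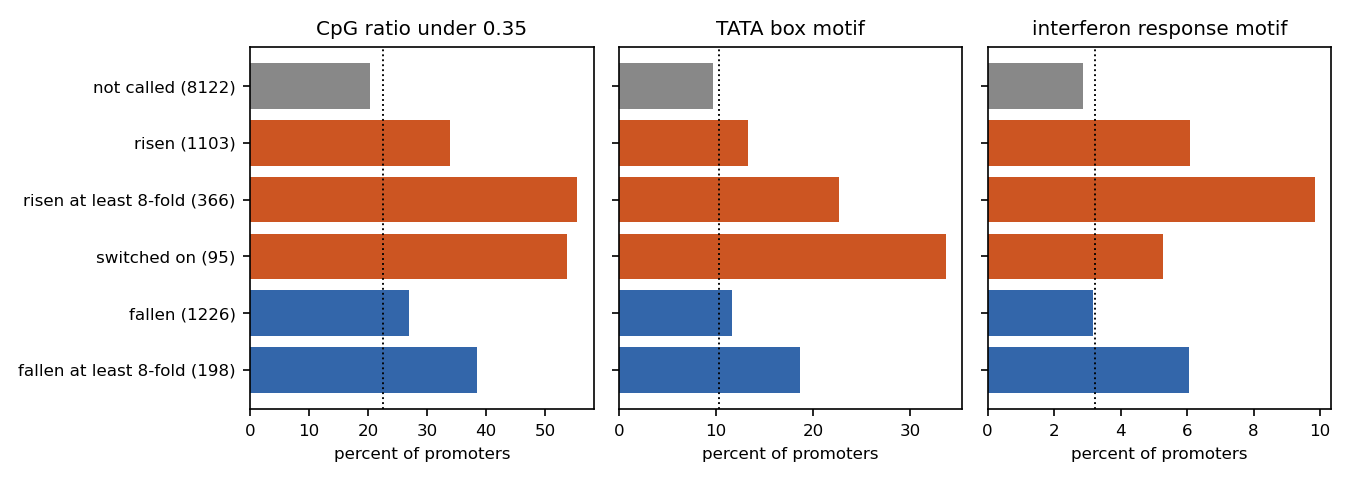
Percentage of promoters (250 bases before to 50 after the start) with a CpG ratio under 0.35, with a TATA box and with an interferon response element, by how the gene changed with OS, with the number of promoters in parentheses and a dotted line at the share over all genes tested. The label switched on marks risen genes that no control array measured above background, so they were tested through the OS arrays alone. The share of CpG-poor promoters is 20.3% among genes not called and 55.5% among those that rose at least 8-fold.

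The closest group for comparison was the OCKS-treated MEFs, which had the same inhibitors and siRNA with an OCKS construct in place of OS. Of 15701 genes tested between them, 0 passed in either direction (limma). At an unadjusted p under 0.05 there were 2873 genes, or 18.3%, so this does not show that the treatments act alike. Pou5f1 came nearest, at -6.09 on average with OCKS, and was lower than with OS by a difference of -4.95 (SE 0.379, adjusted p = 0.00121). On the slide that held 1 array of each, the difference was -3.92. Fkbp5 differed by 0.01, Hp by 0.00, Hes1 by 0.46 and Slx by 0.13 between the treatments, while Cldn3 differed by -2.60 (SE 0.496, adjusted p = 0.0712) and Serpinb2 by -2.01 (SE 0.610, adjusted p = 0.141). Of 224 named genes that could be compared, 27 differed by at least 1 in either direction.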

How the data were processed

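For each array the authors deposited the output of Agilent Feature Extraction 10.7.3.1, which gives spot intensity after background subtraction, without normalization between arrays, and quality flags. Their deposited value table is in log2 units, centred by probe, and 2 of its columns, which do not match their arrays, were not used. The paper's methods name the Benjamini-Hochberg correction but not the statistic.

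There were 39429 probes without the controls, and 92 were dropped for uneven spots. RefSeq accessions named 25983 probes, which gave 19711 genes (several probes for 5247), while 13354 stayed unnamed. The intensity was taken to log2, the array's 75th percentile was subtracted, and the brightest probe stood for a gene. Per array 71.9% to 85.6% of 43020 spots, and 73.2% to 82.9% on the 6 arrays compared, rose well above background, with 0 saturated. Of 919 called genes with several detected probes, 72 had probes of opposite sign. All 12 arrays entered 1 fit without covariates in limma 3.58.1 (R 4.3.3), tested on simulated data first. Tables used pandas 2.3.3 and numpy 2.4.6 in Python 3.11.15, and plots matplotlib 3.10.9. That replicates are separate cultures is taken from the study, and otherwise the p-values measure only the spread between these samples.

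The genes, lists and families described were chosen with earlier results of these data known. Named are the 15 largest rises and falls among genes detected on every array, the 10 largest lower bounds each way, with predicted genes and 70 genes whose results were already known, such as Tyrobp, set aside from both rankings, up to 4 called members per list and 2 per family, all targets, the 3 longest runs each way and genes that differ between OCKS and OS, though some of these are not reported here. Other members are examples chosen after their values were seen. Tex19.1, whose rise the paper reports, was not among the 70 genes set aside. Promoters come from RefSeq (GRCm38.p6), where 156 of the 251 named genes have a single start site. Alternatives tried were normexp background correction (offset 50), quantile normalization, other scalings, other filters, the mean of a gene's probes, a fit of the 2 groups alone, a block for the slide or for the replicate number, the value table, a 4-fold minimum and leaving out each array.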

Additional observations from a re-analysis of the deposited data

How the results depend on the processing

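Counts of genes that rose and fell, 1771 and 2087, were 4337 and 643 with spike-in scaling, 1973 and 1729 with quantile normalization, 1561 and 1324 with normexp background correction, 980 and 690 at a 4-fold minimum, and 1687 and 1978 with the slide as a random block. Leaving out 1 array at a time gave 1559 to 1851 and 1793 to 2145, and 3044 of the 3858 called genes passed without every array in turn. Genes that were off in one group and called, 137 and 141, were 71 and 40 with normexp, and a filter on both groups leaves none to count. Whether the replicate numbers pair the samples is not given, and the arrays did not settle it. Same-numbered arrays deviated together with correlations of 0.168, 0.124 and 0.025, and differently numbered ones with -0.187 to 0.050. For each control array the same-numbered OS array had the highest correlation. With the replicate number as a block 1683 genes rose and 1959 fell. Between OCKS and OS the counts of 0 became 12 lower with spike-in scaling, 1 lower with quantile normalization and 2 lower with normexp, and 0 to 9 higher and 0 to 33 lower when 1 array was left out, the highest without OS replicate 3. None of the 251 named genes reversed under the alternatives run. With 1 array left out 19 of them lost their call, 27 did with spike-in scaling and 38 with normexp. Spike-in scaling moved the median over all genes from -0.19 to 0.61, and the cause of the shift was not tested. Dim probes, whose signal lies near the background, give bounds only.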
